A study of Homo sapiens with 12 samples.

Results

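The human gene annotation lists 246 protein-coding genes on chromosome 19 whose symbol is ZNF followed by a number and at most 1 further letter. The rule that picks them out of 58735 genes measured uses name, biotype and chromosome and no expression value. The file's transcription factor column assigns 238 of them to the C2H2 zinc finger family. C2H2 zinc fingers are small zinc-holding loops that read DNA, and proteins of this family carry them in tandem. Many of the chromosome 19 members also carry a KRAB domain near their start, which recruits the corepressor TRIM28 (KAP1). TRIM28 in turn brings in the histone H3 lysine 9 methyltransferase SETDB1, HP1 proteins (CBX1, CBX3 and CBX5) and the NuRD deacetylase complex, and the bound DNA is silenced. The family is known for holding transposable elements in check, and its genes arose by repeated tandem duplication, which left them in arrays along the chromosome.

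RNA was sequenced from LX-2, a cultured line of human hepatic stellate cells with the genotype given as WT, in 4 groups of 3 libraries. The con cells were untreated, and the TGFB cells received 5 ng/ml human recombinant TGF-β1, a cytokine that activates stellate cells, for 24 h. SiNAT10 cells were transfected with siRNA against NAT10, an RNA cytidine acetyltransferase, by lipofection. SiNAT10_TGFB cells were transfected in the same way and 48 h later received TGF-β1 at the same dose for 24 h. No group with a control siRNA is named, so what transfection and what knockdown did cannot be told apart, and the sources used here do not give a harvest time for SiNAT10 cells. The labels call the libraries biological replicates but name no cultures or dates, and the spread behind the p-values may be technical.

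NAT10 stood at 62.9 to 69.9 CPM (counts scaled to library depth) in the con and TGFB libraries and at 15.8 to 20.7 CPM in the siRNA libraries. Total counts ran from 25877008 to 35132582, with at most 28311434 in the 6 siRNA libraries and at least 29797990 in the other 6. In a library, 3 counts correspond to 0.0871 to 0.115 CPM, which bounds the precision of low values and covers counting error only. Of the stellate markers, VIM (798 to 1508 CPM) and COL1A1 (769 to 7800 CPM) were abundant and PDGFRB was present (6.32 to 83.9 CPM), while DES and LRAT were at or near 0. The hepatocyte genes ALB, APOA1, APOB and TTR, the leukocyte genes PTPRC and CD68, the endothelial gene KDR and the cholangiocyte genes EPCAM and KRT19 did not exceed 0.343 CPM in any library. The endothelial genes PECAM1, VWF and CDH5 reached at most 1.25 CPM. Other listed markers were present in every library, namely SERPINA1 of hepatocytes (13.7 to 28.4 CPM), SOX9 (35.3 to 70.6 CPM) and KRT7 (2.00 to 5.72 CPM) of cholangiocytes, and CD14 (1.06 to 4.84 CPM) and ADGRE1 (1.79 to 2.86 CPM) of leukocytes. The siRNA comparisons moved a large part of the transcriptome, with 26.4% of the 18560 genes tested called higher and 26.4% called lower in SiNAT10 against con. In such bulk samples, fewer cells with a transcript and less of it per cell cannot be told apart.

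Start regions are shown first, because some short motifs were more frequent there than at the starts of all coding genes. RefSeq (GRCh38.p14) gave a start region for 215 of the 246 members, and each window held 250 bases before and 30 bases after the annotated start. In the 5 examples below, capitals mark matches on either strand to the core letters of the ETS motif (CCGGAAGT) or of the ZNF143 motif (ACTACANTT), and all are read 5′ to 3′ along the gene. The motifs and the examples were chosen after expression values had been seen, from members with at least 50 counts per library. ZNF222 and ZNF460, whose values are given below, rose in both siRNA comparisons and have an ETS core. ZNF121 rose by 0.76 and 0.77 on the log2 scale in SiNAT10 against con and SiNAT10_TGFB against TGFB and has a ZNF143 core. ZNF14, the member with the largest siRNA rise among those named here, has neither, and ZNF865, which fell, has an ETS core.
ZNF222, chr19:44025129-44025408, plus strand: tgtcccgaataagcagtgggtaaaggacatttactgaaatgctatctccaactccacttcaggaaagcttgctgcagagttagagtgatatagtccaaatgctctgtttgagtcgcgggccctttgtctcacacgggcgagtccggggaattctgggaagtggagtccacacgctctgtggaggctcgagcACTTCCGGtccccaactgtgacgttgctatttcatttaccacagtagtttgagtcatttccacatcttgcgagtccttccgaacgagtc
ZNF460, chr19:57279732-57280011, plus strand: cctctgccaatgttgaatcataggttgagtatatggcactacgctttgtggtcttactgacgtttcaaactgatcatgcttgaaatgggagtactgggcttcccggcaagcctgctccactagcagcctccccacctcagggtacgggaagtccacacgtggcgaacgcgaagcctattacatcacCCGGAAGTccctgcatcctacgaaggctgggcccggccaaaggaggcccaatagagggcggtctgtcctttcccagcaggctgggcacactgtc
ZNF121, chr19:9584475-9584754, minus strand: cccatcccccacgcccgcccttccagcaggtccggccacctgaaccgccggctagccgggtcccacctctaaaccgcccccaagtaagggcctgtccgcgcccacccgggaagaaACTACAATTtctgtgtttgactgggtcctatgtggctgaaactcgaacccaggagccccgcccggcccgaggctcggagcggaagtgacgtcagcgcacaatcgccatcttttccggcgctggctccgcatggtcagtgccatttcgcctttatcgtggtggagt
ZNF14, chr19:19733083-19733362, minus strand: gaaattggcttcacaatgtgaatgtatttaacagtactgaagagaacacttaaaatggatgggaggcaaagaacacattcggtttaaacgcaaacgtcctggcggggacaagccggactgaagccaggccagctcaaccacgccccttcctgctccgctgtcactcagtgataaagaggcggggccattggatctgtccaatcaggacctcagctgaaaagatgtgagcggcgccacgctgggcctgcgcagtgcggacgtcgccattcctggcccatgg
ZNF865, chr19:55605397-55605676, plus strand: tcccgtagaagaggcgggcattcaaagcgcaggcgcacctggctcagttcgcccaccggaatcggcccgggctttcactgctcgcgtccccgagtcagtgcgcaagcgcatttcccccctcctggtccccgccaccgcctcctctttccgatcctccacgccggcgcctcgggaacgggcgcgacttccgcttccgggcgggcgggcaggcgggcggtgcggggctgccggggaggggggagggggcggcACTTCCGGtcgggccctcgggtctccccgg

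The ETS core was present in 45 of the 215 members' windows (20.9%), against 6.25% of 14896 windows of coding genes. The ZNF143 core was present in 26 windows (12.1%), against 1.69% of all. CCAAT, the letters of the CCAAT box, occurred in 53.5% of members' windows and 35.8% of all, and the TATA box letters TATAAA in 1.86% and 9.21%. GCGCATGCG (NRF1 core) was found in 2.79% of members' windows and 2.71% of all, and AAGATGGCG (YY1 core) in 3.72% and 2.19%. All 6 motifs were searched on both strands, and none contains another. The letters were chosen and shortened after a first search, so these shares are descriptive and no enrichment was tested. A match describes letters in a window and is no evidence of binding, and tandem duplicates share start sequence, so the members are not independent. Windows of members had a median GC content of 60.0% and 19 CpG dinucleotides, against 62.9% and 21 over all coding genes.

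In protein architecture, 181 of the 246 members held a KRAB box pattern in the coding sequence of their longest annotated product. This pattern misses divergent KRAB boxes, among them those of the ZNF221 to ZNF235 array, so its absence says only that these letters were not found. Finger counts ran from 0 in ZNF738 to 36 in ZNF208, with a median of 12. Transcripts were AT-rich for this chromosome, with a median GC content of 42.4% over the members tested, against 44.9% for ZNF genes of other chromosomes, 60.2% for the other coding genes of chromosome 19 and 48.5% for all genes tested. Near-identical copies can split reads: the median member shared 2.64% of its 50-base words with other genes, 156 members shared under 5%, and ZNF177 shared most, at 86.8%. The strand setting of the counting is unknown here, so reads of overlapping genes cannot be told apart. More than 10% of the transcript lay in an exon of another gene on the same strand in 37 members, and on the opposite strand in 22.

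Members were split into 16 position clusters wherever consecutive starts lay over 1 Mb apart, on hg38 from 2819874 (ZNF554) to 58481230 (ZNF446). Cluster 16, the array at the end of the long arm from ZNF628 to ZNF446 (55476332 to 58481230), held 59 members. Cluster 15, from ZNF175 to ZNF331 (51571298 to 53580269), held 39, and cluster 5, from ZNF101 to ZNF254 (19668796 to 24129961), held 37. Cluster 9 (ZNF565 to ZNF573) held 26, cluster 3 (ZNF653 to ZNF791) 25, cluster 12 (ZNF575 to ZNF296, 43525497 to 45076588) 24 and cluster 2 (ZNF557 to ZNF846) 15. The other 9 clusters held 1 to 5 members each.

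Of the 246 members, 217 passed the filter on low counts, and these are the members tested below. The other 29 had means of at most 6 counts per library, and 10 of them, ZNF99, ZNF135, ZNF208, ZNF536, ZNF541, ZNF626, ZNF676, ZNF723, ZNF728 and ZNF729, had no count in any library. Cluster 5, home of the primate-expanded ZNF91 family, was the most thinly expressed of the large clusters, with 24 of 37 members tested, while all 24 members of cluster 12 and 37 of 39 in cluster 15 were. Levels per length were low: the median member tested stood at 1.41 FPKM (fragments scaled to transcript length and library depth) over the con libraries, against 5.09 FPKM for the coding genes tested. In con, 133 of the 246 members exceeded 1 FPKM and 13 exceeded 5 FPKM.

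The most abundant member in con was ZNF146, a protein of fingers alone, at 16.6 ± 1.25 FPKM (SD, n = 3 here and for every mean below). It was followed by ZNF787 (10.5 ± 0.87 FPKM) and ZNF865 (10.0 ± 1.19 FPKM), whose spreads overlapped. ZNF428 (9.03 ± 0.91 FPKM), ZNF317 (8.96 ± 0.30 FPKM), ZNF574 (8.43 ± 0.44 FPKM), ZNF581 (8.37 ± 0.61 FPKM) and ZNF580 (7.84 ± 0.58 FPKM) came next, with mean ± SD ranges that overlapped between neighbours in this order. ZNF45 (7.30 ± 0.71 FPKM) and ZNF579 (6.38 ± 0.54 FPKM) completed the 10 highest. Of these 10, ZNF317 alone matched the KRAB pattern.

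As a family, the members' transcripts had a higher summed level, in TMM-scaled CPM, after siRNA. The summed level of all 246 was 2217, 2187 and 2170 CPM in con and 2160, 2183 and 2144 CPM in TGFB. It was 2525, 2587 and 2670 CPM in SiNAT10 and 2674, 2630 and 2593 CPM in SiNAT10_TGFB. The 6 siRNA libraries lay above all 6 others, while con and TGFB overlapped and so did the 2 siRNA groups. The unscaled share of all counts was 0.2186 to 0.228% in con and 0.1975 to 0.2023% in TGFB, without overlap. It was 0.2634 to 0.2803% in SiNAT10 and 0.2608 to 0.2722% in SiNAT10_TGFB. The comparison of TGFB with con thus depended on scaling. Group means were 2191 ± 23.8 CPM in con and 2594 ± 72.8 CPM in SiNAT10, a difference of 18.4%. They were 2162 ± 19.6 CPM in TGFB and 2632 ± 40.6 CPM in SiNAT10_TGFB, a difference of 21.7%. With TGF-β1 the sum differed by −1.32% without siRNA and by 1.47% with it. An exact permutation test of 3 against 3 libraries cannot go below p = 0.1, so no p is given for the sum.

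**Figure D1:**
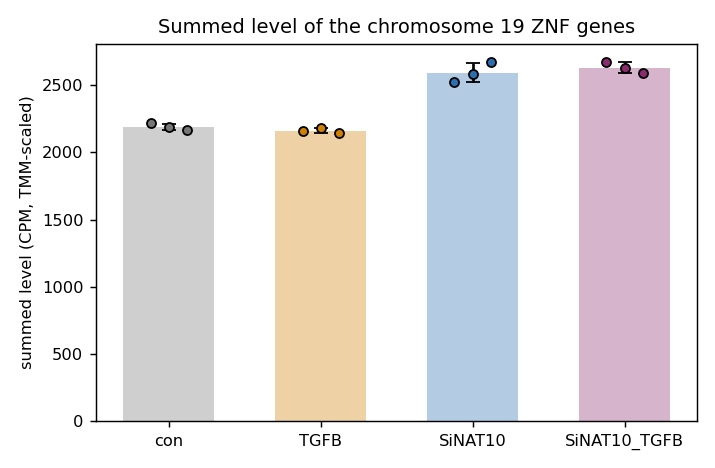
Summed level of the 246 chromosome 19 ZNF genes in CPM (TMM-scaled) in each of the 12 libraries, by group; bars are means, whiskers SD over 3 libraries and points single libraries. The siRNA libraries sit between 2525 and 2674 CPM and the others between 2144 and 2217 CPM.

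The SiNAT10 and con groups show what transfection with NAT10 siRNA did without TGF-β1. Of the 217 members tested, 74 rose (34.1%, against 26.4% of all genes tested) and 13 fell (5.99%, against 26.4% of all), by edgeR's quasi-likelihood test at an adjusted p under 0.05. The median log2 fold change was 0.25, against 0.02 over all genes. Of the 822 other coding genes of chromosome 19 tested, 169 were called higher (20.6%) and 351 lower (42.7%), with a median of −0.23. Of 230 ZNF genes of other chromosomes 70 were called higher (30.4%) and 59 lower (25.7%), with a median of −0.02. No test of the difference between these groups of genes was made. The split of the members changed with GC adjustment: after removal of each library's GC trend it became 54 higher and 27 lower, and the median 0.10, against −0.02 over all genes.

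Under TGF-β1 the same contrast, SiNAT10_TGFB against TGFB, uses none of the libraries of the first. Here 89 members rose (41.0%, against 26.3% of all genes tested) and 17 fell (7.83%, against 26.8% of all), with a median log2 fold change of 0.25 against 0.01 over all genes. The other coding genes of chromosome 19 had 148 higher (18.0%), 363 lower (44.2%) and a median of −0.26, and ZNF genes elsewhere had 79 higher (34.3%), 51 lower (22.2%) and a median of 0.07. With the GC trend removed, 66 members were called higher and 22 lower, with a median of 0.16. Scaling by library size alone gave 107 higher and 8 lower, under a shift of the all-gene median to 0.14.

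Between these comparisons, 64 members rose in both (29.5% of those tested, against 20.5% of all genes tested), which is 86.5% of the list without TGF-β1 and 71.9% of the list with it. Over all genes tested these shares were 77.6 and 77.8%. In all, 4 fell in both (ZNF446, ZNF580, ZNF784 and ZNF865), none was called in opposite directions, and 171 of 217 had the same sign (78.8%, against 82.5% of all genes tested). The 4 are 1.84% of the members tested, against 21.1% of all genes. Across the 217 members, which share libraries and are not independent, the fold changes had a Pearson r of 0.70 and a Spearman rho of 0.66, against 0.77 and 0.77 over all genes tested. Of the 64, 51 held the KRAB pattern, as did 156 of the 217 members tested. Under 5% of 50-base words were shared with other genes in 45 of the 64, and in 156 of all 246 members, a count that includes members not tested. The median transcript GC content of the 64 was 42.2%, close to that of the members tested (42.4%). In cluster 16 lay 22 of the 64 and 56 of the 217. All 4 that fell in both lay in cluster 16, had GC contents of 58.8 to 71.1% and had no KRAB pattern.

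**Figure D2:**
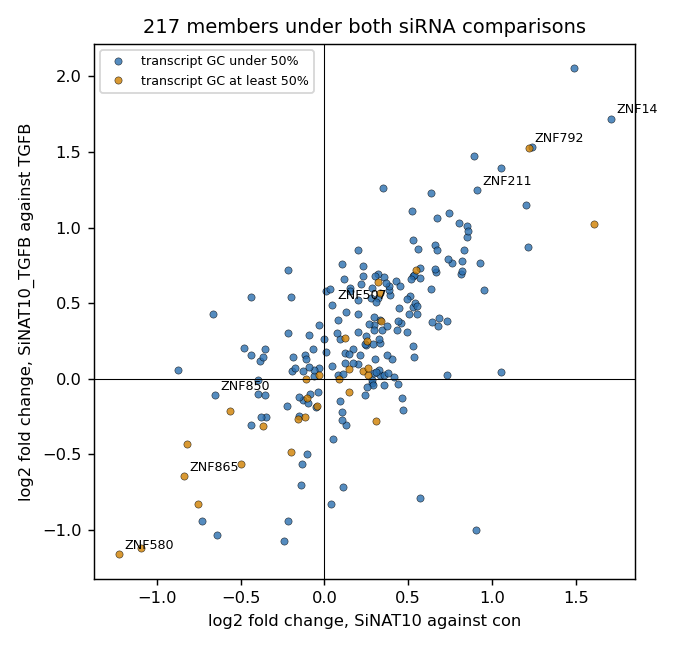
Log2 fold changes of the 217 members tested, SiNAT10 against con (horizontal) and SiNAT10_TGFB against TGFB (vertical), coloured by transcript GC content. Most points lie in the upper right quadrant (r = 0.70 across members), and the lower left corner holds mainly members of at least 50% GC such as ZNF580 and ZNF865.

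ZNF14, a KRAB protein with 17 fingers (ENSG00000105708; chr19:19710471-19733097, cluster 5), had the largest rise of the members with at least 50 counts per library, in both comparisons. Its level was 2.53, 1.83 and 1.91 CPM in con and 5.11, 6.25 and 9.23 CPM in SiNAT10. It was 1.98, 1.90 and 1.89 CPM in TGFB and 6.04, 6.22 and 6.77 CPM in SiNAT10_TGFB. Every siRNA library thus lay above every other library, with SiNAT10 replicate 3 highest. The log2 fold changes were 1.71 (SE 0.21, adjusted p = 2.53e-07) without TGF-β1 and 1.72 (SE 0.21, adjusted p = 2.65e-07) with it. No 50-base word of ZNF14 occurred in another gene.

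ZNF792, a KRAB protein with 12 fingers (ENSG00000180884; chr19:34956354-34964049, cluster 8), was called in all 4 pairwise comparisons, as was ZNF83, whose siRNA calls were lost under GC adjustment (0.12 and 0.15). ZNF792 stood at 6.45, 6.20 and 7.43 CPM in con and at 5.00, 3.29 and 3.75 CPM in TGFB, without overlap. With siRNA it stood at 14.6, 15.1 and 17.1 CPM in SiNAT10 and at 12.7, 11.7 and 10.4 CPM in SiNAT10_TGFB, again without overlap. The siRNA rises were 1.22 (SE 0.14, adjusted p = 1.25e-07) and 1.53 (SE 0.15, adjusted p = 8.33e-09) on the log2 scale. Without siRNA its TGF-β1 change was −0.74 (SE 0.15, adjusted p = 7.43e-04). With siRNA the change was −0.43 (SE 0.14, adjusted p = 0.0437), a call that 8 of 12 omissions of a library ended (adjusted p of 0.052 to 0.181). The difference between the TGF-β1 changes did not pass the test (0.31, SE 0.20, adjusted p = 0.512).

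ZNF211 (ENSG00000121417; chr19:57630395-57642779, cluster 16) is a KRAB protein with 11 fingers. Its libraries read 12.5, 14.3 and 13.8 CPM in con, 26.4, 25.1 and 24.6 CPM in SiNAT10, 11.02, 9.60 and 12.3 CPM in TGFB and 25.3, 26.0 and 26.8 CPM in SiNAT10_TGFB. Spread within a group was small beside the siRNA difference, of 0.91 (SE 0.099, adjusted p = 5.18e-08) and 1.25 (SE 0.10, adjusted p = 3.64e-10). ZNF776, another KRAB member of cluster 16, rose from 13.6 ± 1.34 to 29.1 ± 1.38 CPM under TGF-β1, by 1.10 (SE 0.11), and by 0.74 (SE 0.11) without TGF-β1.

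ZNF317, the abundant KRAB member of cluster 2, rose from 45.5 ± 1.54 to 66.4 ± 3.02 CPM, by 0.55 (SE 0.075), and under TGF-β1 from 42.6 ± 4.39 to 70.1 ± 0.74 CPM, by 0.72 (SE 0.075). ZNF616, a KRAB protein of cluster 15 with 21 fingers, rose by 0.63 (SE 0.13) and 1.23 (SE 0.13). ZNF460 of cluster 16 rose by 1.20 (SE 0.17) and 1.15 (SE 0.17), from 5.73 ± 1.08 to 13.2 ± 0.85 CPM without TGF-β1. ZNF222 of cluster 12 rose by 1.24 (SE 0.22) and 1.54 (SE 0.22), and 16.8% of its 50-base words occur in other genes. The remaining rises named by size without TGF-β1 were ZNF296 (1.61), whose mouse counterpart binds the pluripotency factor KLF4, ZNF136 (1.21), ZNF416 (0.93), ZNF547 (0.90; adjusted p = 0.061 without con replicate 3) and ZNF805 (0.86). With TGF-β1 they were ZNF547 (1.47), ZNF155 (1.26) and ZNF600 (1.11).

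For their known roles, 4 members were singled out after their values had been seen, all of them among the 64. ZNF473, a component of histone pre-mRNA processing with the U7 snRNP, rose from 33.7 ± 1.57 to 59.4 ± 3.79 CPM, by 0.82 (SE 0.073), and under TGF-β1 by 0.78 (SE 0.073). ZNF274, which recruits SETDB1 to zinc finger gene clusters, rose by 0.33 (SE 0.081) and 0.57 (SE 0.082). ZNF91, a repressor of SVA retrotransposons, rose by 0.33 (SE 0.11) and 0.26 (SE 0.11). With the GC trend removed neither ZNF91 call was kept (0.09 and 0.08), the first was lost without con replicate 2 or SiNAT10 replicate 3 (adjusted p of 0.097 and 0.053), and 9 of 12 omissions of a library ended the second (0.051 to 0.19). ZNF146 stood at 74.7, 64.4 and 68.4 CPM in con and at 73.9, 82.0 and 89.2 CPM in SiNAT10, overlapping groups with a called rise of 0.24 (SE 0.076, adjusted p = 0.0110). Under TGF-β1 it rose by 0.23 (SE 0.076). Neither ZNF146 call was kept with the GC trend removed (0.06 and 0.05), nor the first without con replicate 2 or SiNAT10 replicate 3 (0.081 and 0.068) and the second without TGFB replicate 3 or SiNAT10_TGFB replicate 1 (0.080 and 0.059).

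**Figure D3:**
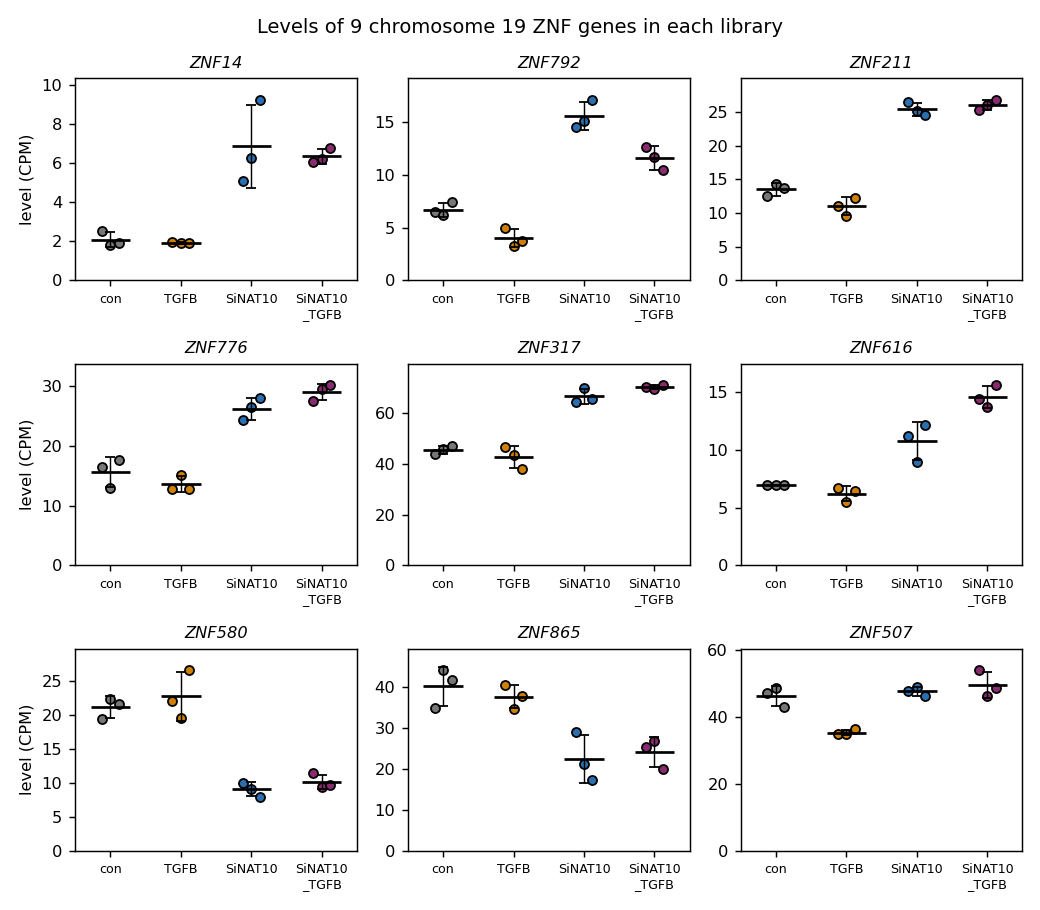
Level in CPM of 9 chromosome 19 ZNF genes in each of the 12 libraries; horizontal lines are group means and whiskers SD over 3 libraries. ZNF14, ZNF211, ZNF776, ZNF317 and ZNF616 are higher in all siRNA libraries, ZNF580 and ZNF865 are lower in them, ZNF792 moves with both agents and ZNF507 is lowest in TGFB.

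Among the falls, ZNF580, a short protein with 3 fingers (ENSG00000213015; chr19:55635016-55643469, cluster 16), had the largest in both comparisons. It stood at 19.4, 22.4 and 21.7 CPM in con and at 9.98, 9.14 and 7.95 CPM in SiNAT10. Its TGFB libraries read 22.04, 19.6 and 26.6 CPM and its SiNAT10_TGFB libraries 11.4, 9.45 and 9.63 CPM. The log2 fold changes were −1.23 (SE 0.12, adjusted p = 1.62e-08) and −1.16 (SE 0.12, adjusted p = 3.23e-08), with no overlap of groups. ZNF581, which overlaps it on the same strand (chr19:55635459-55645622), stood at 14.6 ± 1.07 CPM in con and 16.1 ± 0.78 CPM in SiNAT10, and passed the test in neither comparison (0.15 and 0.06).

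ZNF580 and ZNF581 stand in a run of GC-rich ZNF genes without a KRAB pattern between 55576770 and 55645622, which also holds ZNF579, ZNF524, ZNF865 and ZNF784. ZNF865, with 20 fingers, fell from 34.97, 44.2 and 41.8 CPM in con to 28.96, 21.1 and 17.4 CPM in SiNAT10. The change was −0.84 (SE 0.14, adjusted p = 1.80e-05), and under TGF-β1 it was −0.65 (SE 0.14). ZNF784 (6 fingers) changed by −0.50 (SE 0.20, adjusted p = 0.0460) and −0.56 (SE 0.21, adjusted p = 0.0259), and ZNF579 (8 fingers) by −0.20 (not called) and −0.48 (SE 0.11). Omission of con replicate 2 or 3, TGFB replicate 3 or SiNAT10 replicate 1 or 2 ended the first call of ZNF784 (adjusted p of 0.05 to 0.181), and omission of TGFB replicate 1 or 3 or SiNAT10_TGFB replicate 1 or 2 the second (0.061 to 0.126). ZNF524 (4 fingers) was called in neither siRNA comparison. Transcript GC contents in this run were 59.6 to 71.1%. With the GC trend removed, ZNF579 under TGF-β1 stood at 0.06 and ZNF784 without TGF-β1 at 0.02, and ZNF865 under TGF-β1 was no longer called (adjusted p = 0.353) and stood at 0.07 with the length trend removed as well. ZNF580 was called lower in every alternative run. ZNF628, at the start of cluster 16, fell by 0.57 on the log2 scale without TGF-β1 (SE 0.14) and stood at 0.12 with GC and length trends removed.

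Among members of lower GC content, ZNF850, a KRAB protein with 29 fingers, fell from 21.1 ± 1.90 to 13.4 ± 1.74 CPM without TGF-β1, by 0.65 on the log2 scale (SE 0.11). ZNF699, a KRAB protein of cluster 2, fell under TGF-β1 from 9.48 ± 0.36 to 4.50 ± 0.94 CPM (log2 fold change −1.07, SE 0.19). Without TGF-β1 its libraries overlapped, at 6.88, 7.10 and 6.59 CPM in con and 4.22, 5.21 and 7.98 CPM in SiNAT10, and the change of −0.24 did not pass the test. Other falls under TGF-β1 were ZNF132 (−1.03), ZNF446 (−0.83), ZNF846 (−0.82), ZNF221 (−0.79) and ZNF738 (−0.70). Without TGF-β1 they were ZNF570 (−0.87), ZNF497 (−0.82), ZNF446 (−0.75), ZNF567 (−0.44) and ZNF714 (−0.39). The calls of ZNF446 and ZNF497 without TGF-β1 were lost with the GC trend removed (adjusted p of 0.075 and 0.211), and that of ZNF221 without TGFB replicate 2 or SiNAT10_TGFB replicate 1 or 2 (0.076 to 0.262). ZNF567 was lost without con replicate 2 or 3 or SiNAT10 replicate 1 or 2 (0.065 to 0.112), and ZNF846 without TGFB replicate 2 or 3 or SiNAT10_TGFB replicate 3 (0.066 to 0.113).

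Ranked by transcript GC content and cut into 3 sets of 71 to 73, the members were set beside all genes of the same GC range. In SiNAT10 against con the members' median log2 fold changes were 0.29, 0.23 and 0.23 from low to high GC, and those of all genes in these ranges 0.18, 0.15 and −0.08. With TGF-β1 the members' medians were 0.28, 0.23 and 0.23 and those of all genes 0.18, 0.16 and −0.09. The high range, 44.5 to 71.1% GC, was not matched within. Of its 71 members 30 had at least 50% GC, against 8254 of its 12188 genes. In the 30 members of at least 50% GC the medians were 0.03 and −0.05, against −0.20 and −0.22 over all genes of that range. In those 30, 5 members rose and 7 fell without TGF-β1, and 7 rose and 7 fell with it. These are 16.7 and 23.3%, then 23.3 and 23.3%, against 18.0% higher and 37.9% lower, then 17.6% higher and 38.8% lower, over all genes of that range.

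By architecture, the 156 members tested with the KRAB pattern had median log2 fold changes of 0.29 and 0.31 in the 2 siRNA comparisons, with 57 higher (36.5%) and 5 lower (3.21%), then 72 higher (46.2%) and 7 lower (4.49%). The 61 without it had medians of 0.15 and 0.06, with 17 higher (27.9%) and 8 lower (13.1%), then 17 higher (27.9%) and 10 lower (16.4%). They include members of the ZNF221 to ZNF235 array of cluster 12, whose divergent KRAB boxes the pattern misses. They are therefore not a set without KRAB domains. In the set without the pattern the share higher was thus near that of all genes tested, 26.4 and 26.3%. These sets had median GC contents of 42.1 and 43.6%, but they were not alike in GC content. Most of the 30 members of at least 50% GC lay in the smaller set, without the pattern. The GC-rich run of cluster 16 described above lies in the second set. Pattern and GC content were not separated. The 12 members with at most 5 fingers had medians of −0.12 and −0.27, and the 92 members with 11 to 15 fingers 0.29 and 0.34. Most members with at most 5 fingers had at least 50% GC, with exceptions such as ZNF738 (36.1%). Finger count and GC content were therefore not separated either. Members with an ETS core at their start (42 tested) had medians of 0.30 and 0.38, and those without (150 tested) 0.24 and 0.23. Members with a ZNF143 core (26 tested) had medians of 0.19 and −0.04, and those without (166 tested) 0.25 and 0.30. No difference between these sets was tested.

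Along the chromosome, the share of members that rose varied between clusters, beside 26.4% of all genes tested without TGF-β1 and 26.3% with it. Of all genes tested, 26.4% fell without TGF-β1 and 26.8% with it. Without TGF-β1, cluster 16 had 23 rises (41.1%) and 6 falls among 56 members tested, cluster 15 had 15 (40.5%) and 1 among 37, and cluster 12 had 9 (37.5%) and 0 among 24. Cluster 2 had 5 (38.5%) and 1 among 13. Clusters 3 (27.3%), 5 (6 of 24 members) and 9 (26.1%) were close to the share of all genes. Under TGF-β1, cluster 15 had 20 rises (54.1%) and 0 falls, with 33 of 37 members above 0 and a median of 0.35, and cluster 3 had 11 rises and 0 falls among 22, with a median of 0.39. Cluster 12 was divided under TGF-β1, with 6 rises and 5 falls among 24 and a median of 0.02. Also under TGF-β1, cluster 2 had 5 rises (38.5%) and 3 falls, cluster 5 had 10 (41.7%) and 2, and cluster 16 had 24 (42.9%) and 7. Cluster 9 had 6 rises and 4 falls without TGF-β1 and 6 (26.1%) and 0 with it. The differences between clusters were not tested.

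**Figure D4:**
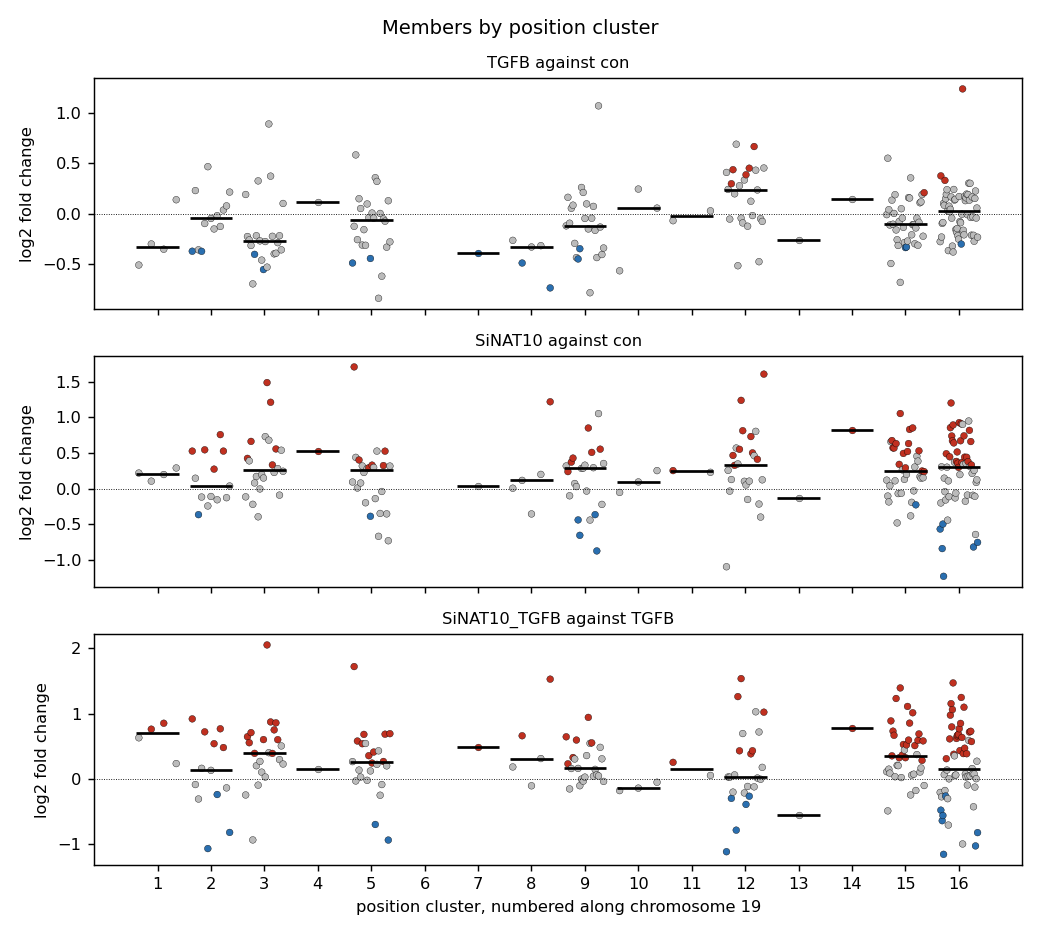
Log2 fold change of each member tested, by position cluster along chromosome 19, for TGFB against con, SiNAT10 against con and SiNAT10_TGFB against TGFB; red and blue points passed the test as higher and lower, grey points did not, and black lines are cluster medians. Rises spread over clusters 2, 3, 5, 9, 12, 15 and 16 with siRNA. Cluster 12 holds 5 of the 9 rises with TGF-β1 (20.8% of its members, against 11.9% of all genes tested).

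The TGFB and con groups show what TGF-β1 did in untransfected cells, and few members were called. Of 217 members tested, 9 rose (4.15%, against 11.9% of all genes tested) and 14 fell (6.45%, against 12.2% of all), with a median log2 fold change of −0.05 against −0.01 over all genes. This split depended on scaling: by library size alone 1 was called higher and 44 lower, under a shift of the all-gene median to −0.14. ZNF genes elsewhere had 17 higher and 24 lower of 230, and the other coding genes of chromosome 19 had 121 higher and 72 lower of 822.

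Of the 9 rises, 5 lay in cluster 12, among the tandem duplicates from ZNF283 to ZNF235. These are 20.8% of its 24 members, against 11.9% of all genes tested. The cluster median was 0.24 and 15 of 24 members were above 0. ZNF234, with 18 fingers, stood at 12.8, 12.4 and 12.9 CPM in con and 17.2, 17.1 and 17.9 CPM in TGFB, without overlap (0.45, SE 0.11, adjusted p = 2.52e-03). With siRNA it stood at 13.3, 12.2 and 15.5 CPM and, with TGF-β1 added, at 15.4, 13.1 and 14.8 CPM, where groups overlapped and the change of 0.08 did not pass the test. ZNF224, a repressor of the aldolase A gene, rose by 0.39 (SE 0.13), and ZNF235 by 0.67 (SE 0.24), ZNF404 by 0.44 (SE 0.15) and ZNF283 by 0.30 (SE 0.097). More than 20% of the transcripts of ZNF224 and ZNF235 overlap an opposite-strand exon. In cluster 16, ZNF579 rose by 0.38 (SE 0.11) and ZNF787 by 0.33 (SE 0.093), and in cluster 15 ZNF331 rose by 0.21 (SE 0.074). The 9th rise, ZNF154 (1.24), had a mean of 26.1 counts and is named only to complete the count. By library size alone, none of these calls other than that of ZNF234 was kept. Omission of a library ended the calls of ZNF224 (con replicate 2 or 3 or TGFB replicate 1 or 2, adjusted p of 0.116 to 0.147) and ZNF283 (con replicate 2 or 3 or TGFB replicate 2 or 3, 0.072 to 0.109). Those of ZNF579 and ZNF787 were lost without con replicate 1 or TGFB replicate 3 (0.056 to 0.080). The calls of ZNF235, ZNF404 and ZNF331 were lost without any 1 of the con libraries and in 6, 7 and 9 of 12 omissions in all (0.051 to 0.228).

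Falls with TGF-β1 were spread over clusters 2, 3, 5, 7, 8, 9, 15 and 16. After ZNF792, the falls named by size were ZNF433 (−0.55), ZNF101 (−0.49), ZNF181 (−0.49), ZNF567 (−0.45), ZNF714 (−0.44), ZNF440 (−0.40), ZNF507 (−0.39), ZNF558 (−0.37) and ZNF557 (−0.37). ZNF181 stood at 8.60, 8.43 and 7.93 CPM in con and at 5.99, 6.09 and 5.70 CPM in TGFB, without overlap. ZNF211, one of the strongest siRNA rises, fell by 0.30 on the log2 scale (SE 0.10) with TGF-β1, a call lost without con replicate 2 or 3 or TGFB replicate 1 or 2 (adjusted p of 0.080 to 0.181). The calls of ZNF433 and ZNF567 did not survive the omission of any 1 of the con or TGFB libraries (adjusted p of 0.055 to 0.13). That of ZNF440 was lost without con replicate 1 or 2 or any 1 of the TGFB libraries (0.064 to 0.172), and that of ZNF557 without con replicate 1 or 2 or TGFB replicate 1 or 2 (0.069 to 0.186). Calls were also lost for ZNF101 without TGFB replicate 3 (0.058) and ZNF558 without con replicate 1 (0.056).

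With siRNA present, SiNAT10_TGFB against SiNAT10, 2 members rose (0.92%, against 5.92% of all genes tested) and 4 fell (1.84%, against 5.15% of all), and the median was 0.02. At an unadjusted p under 0.05 there were 22 (10.1%, against 21.6% of all genes tested). The rises were ZNF69 (0.62, SE 0.17) and ZNF616 (0.44, SE 0.13), and the falls ZNF524 (−0.82, SE 0.23), ZNF546 (−0.70, SE 0.22), ZNF792 (−0.43) and ZNF83 (−0.31, SE 0.088). ZNF524 stood at 4.80, 4.36 and 3.90 CPM in SiNAT10 and at 2.39, 3.23 and 1.81 CPM in SiNAT10_TGFB. ZNF69 stood at 3.36, 4.11 and 3.97 CPM and at 5.21, 5.95 and 6.45 CPM. None of these 6 calls was kept without SiNAT10_TGFB replicate 3 (adjusted p of 0.092 to 0.181), and without SiNAT10 replicate 2 that of ZNF69 alone was. ZNF792 and ZNF83 also fell with TGF-β1 in untransfected cells.

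The interaction asks whether the TGF-β1 change differed with siRNA, and 2 members passed it (0.92%, against 1.94% of all genes tested), both positive, and none was negative (against 1.91% of all). At an unadjusted p under 0.05 there were 37 members (17.1%, against 15.6% of all genes tested), and DESeq2 called 4 positive and 3 negative. ZNF507 (ENSG00000168813; chr19:32345594-32387667, with 9 fingers) stood at 47.0, 48.6 and 42.8 CPM in con and 34.7, 34.8 and 36.2 CPM in TGFB, without overlap. With siRNA it stood at 47.7, 48.9 and 46.1 CPM and at 53.8, 46.0 and 48.5 CPM, which overlapped. Its fall with TGF-β1 was −0.39 (SE 0.076, adjusted p = 4.66e-04) without siRNA and the value with siRNA 0.06 (SE 0.076), a difference of 0.44 (SE 0.11, adjusted p = 0.0165). The call was lost without con replicate 2, TGFB replicate 1 or SiNAT10_TGFB replicate 1 (adjusted p of 0.054 to 0.060). ZNF850 (ENSG00000267041; chr19:36714383-36772825) changed by −0.35 (SE 0.11; called, but not without con replicate 2 or TGFB replicate 1) with TGF-β1 without siRNA and by 0.20 (SE 0.11, not called) with it, a difference of 0.55 (SE 0.15, adjusted p = 0.0472), which 9 of 12 omissions of a library ended (adjusted p of 0.058 to 0.141).

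Among the corepressor genes more fell than rose. Of 31 listed genes of KRAB silencing, 29 were tested, and in SiNAT10 against con 2 rose (6.90%, against 26.4% of all genes tested) and 15 fell (51.7%, against 26.4%), with a median of −0.22. Under TGF-β1, 5 rose (17.2%, against 26.3%) and 13 fell (44.8%, against 26.8%), with a median of −0.05. Library size alone gave 6 higher in the first comparison and 13 higher in the second, and removal of GC and length trends gave 7 higher in the first, while the number lower stayed within 1.5 times in each alternative run. ATRX, at up to 0.357 CPM, and ATF7IP2, near 0, were not tested. TRIM28, itself a gene of chromosome 19, stood at 553, 639 and 606 CPM in con and 461, 423 and 362 CPM in SiNAT10, which is −0.53 on the log2 scale (SE 0.074, adjusted p = 2.48e-06). In TGFB it stood at 612, 573 and 625 CPM and in SiNAT10_TGFB at 397, 414 and 359 CPM, a change of −0.63 (SE 0.075, adjusted p = 1.84e-07). No siRNA library reached the lowest of the others. With the GC trend removed the TRIM28 change was −0.05 without TGF-β1 (adjusted p = 0.355, not called) and −0.12 with it (adjusted p = 0.0115). SETDB1 stood at 18.9 ± 1.65 CPM in con and 21.5 ± 1.03 CPM in SiNAT10, which did not pass the test (0.19, adjusted p = 0.123), and rose under TGF-β1 from 17.1 ± 1.31 to 22.1 ± 2.55 CPM (0.38, SE 0.10).

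In the NuRD complex the remodeller CHD3 fell by 0.72 on the log2 scale in both comparisons (SE 0.058), from 446 ± 7.93 to 271 ± 12.3 CPM without TGF-β1. MTA1 (−0.57 and −0.67) and MTA2 (−0.57 and −0.50) fell as well, and the deacetylases HDAC1 (0.06 and 0.11) and HDAC2 (0.13 and 0.09) did not pass the test. Of the HP1 genes, CBX3 fell in both (−0.26 and −0.36), CBX5 fell without TGF-β1 (−0.22) and CBX1 passed in neither (0.01 and 0.08). Among DNA and histone methylation genes, UHRF1 (−0.80 and −0.77), DNMT3A (−0.85 and −0.55) and the H3 lysine 9 methyltransferase EHMT2 (−0.75 and −0.53) fell. With the GC trend removed, UHRF1 (−0.73 and −0.68), DNMT3A (−0.83 and −0.51), CHD3 (−0.54 and −0.54) and MTA2 (−0.44 and −0.36) were still called lower, and MTA1 (−0.14 without TGF-β1) and EHMT2 (−0.11 with TGF-β1) were not called. EHMT2 with TGF-β1 stood at 0.007 with the length trend removed as well. In the HUSH complex and its partners, MPHOSPH8 rose (0.38 and 0.39), FAM208A (TASOR) fell (−0.45 and −0.18) and MORC2 fell (−0.45 and −0.42), and MORC3 rose (0.33 and 0.64). MORC3 without TGF-β1 stood at 0.10 with the GC trend removed and was not called. With TGF-β1 in untransfected cells, 1 gene rose (3.45%, against 11.9% of all genes tested) and 7 fell (24.1%, against 12.2%), with DNMT3B changing most (−0.64, SE 0.094). With siRNA present TGF-β1 changed none at an adjusted p under 0.05. The list was compiled from general knowledge, and a link between these changes and those of the ZNF genes was not tested.

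**Figure D5:**
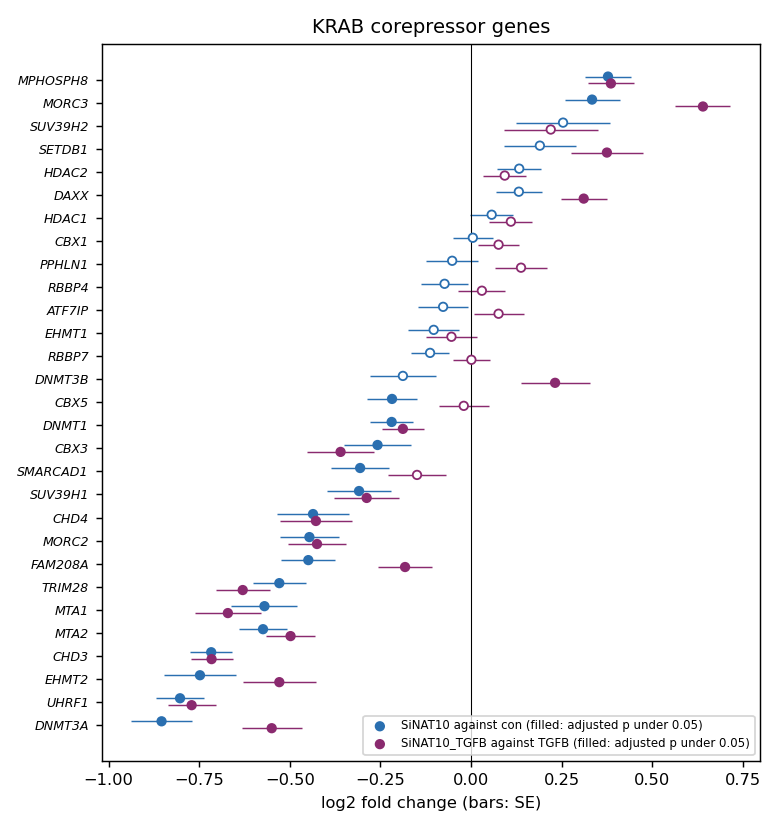
Log2 fold changes of the 29 KRAB corepressor genes tested, SiNAT10 against con and SiNAT10_TGFB against TGFB, with SE bars; filled points passed an adjusted p under 0.05. DNMT3A, UHRF1, EHMT2, CHD3, MTA2, MTA1 and TRIM28 lie furthest to the left, and MPHOSPH8 and MORC3 furthest to the right.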

How the data were processed

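Gene counts deposited by the authors for 58735 genes in 12 libraries were analysed. Per the submitters' processing notes, reads were handled with fastp and HISAT2 2.2.1 on hg38. Not given in the sources used here are the counting tool, annotation, strand setting and RNA selection. GENCODE 29 gives the same coordinates for all 58735 identifiers. FPKM deposited by the authors equalled the counts per transcript length and depth up to 1 factor per library, and were used for levels per length and in alternatives.

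Counts were filtered with filterByExpr (18560 genes kept), scaled by TMM (factors 0.922 to 1.069) and fitted in 1 quasi-likelihood model of 4 group means in edgeR 4.0.16 (R 4.3.3), adjusted by Benjamini-Hochberg over all genes tested and called under 0.05. The SE is the absolute log2 fold change divided by the square root of F. CPM are TMM-scaled. Total counts per library ran from 25877008 to 35132582. Members and lists were chosen with earlier results of these data known. Named members have a mean count of 50 or more and are among the 10 largest called log2 fold changes in a direction, pass the interaction, or are among the 10 highest FPKM in con. Exceptions are stated. A listed stellate marker is not reported here. Of the corepressor list, TRIM28, SETDB1 and called genes of an absolute log2 fold change of at least 0.5 were named, with others of their complexes added after their values were seen. KRAB and finger patterns, planned for RefSeq proteins, were counted in translated GENCODE 29 coding sequences. Start regions are RefSeq's, and motif letters were chosen and shortened after a first search. The alternatives for corepressor genes and for members named beyond the rule were added after their values were seen. The GC alternative removed a spline of 5 degrees of freedom per library (18552 genes). It was also run with the replicate number as a block, and with the length trend removed as well. Other alternatives were library size, RLE, DESeq2 1.42.0, voom, FPKM in limma 3.58.1 (pseudocounts 0.1 and 1), no filter, only the groups compared, the replicate number as a block, coding genes alone, members with few shared words, a threshold of 0.01 and omission of each library. The fit was tested on simulated data.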

Additional observations from a re-analysis of the deposited data

Results flagged for a closer look

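For 2 members the TGF-β1 change differed between cells with and without siRNA by the interaction test of edgeR. The difference of log2 fold changes was 0.44 for ZNF507 (adjusted p = 0.0165), which fell with TGF-β1 in all 3 untransfected libraries against all 3 con libraries and overlapped with siRNA. It was 0.55 for ZNF850 (adjusted p = 0.0472). Among 18560 genes tested, 1.94% passed in this direction, so 2 of 217 members is below the background share. Groups of 3 libraries were too small for a check of single libraries that stand apart.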

How the results depend on the processing

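Among 66 results of single named members, 30 kept direction and call under every alternative, 35 lost the call in 1 or more, and 4 changed sign: ZNF628 in SiNAT10 against con (0.12 with GC and length trends removed), ZNF784 in SiNAT10 against con (0.017 with the GC trend removed, 0.003 with GC and the replicate block), ZNF865 in SiNAT10_TGFB against TGFB (0.068 with GC and length) and ZNF579 in SiNAT10_TGFB against TGFB (0.057 with GC, 0.056 with GC and the replicate block, 0.062 with GC and length). In the text that follows, pairs of counts are members higher and lower. For TGFB against con they were 1 and 44 by library size alone, 4 and 9 on FPKM with pseudocount 0.1, 5 and 8 with pseudocount 1, 1 and 5 without a filter, and 1 and 5 at an adjusted p under 0.01. There were 15 higher with the GC trend removed, 14 with GC and the replicate block and 16 with GC and length. In SiNAT10 against con, the members lower were 8 and 6 on FPKM with and without the filter, 27 with the GC trend removed, 26 with GC and the replicate block, 20 with GC and length, and 8 at 0.01. In SiNAT10_TGFB against TGFB, the members lower were 8 by library size alone, 10 on FPKM with and without the filter, and 7 at 0.01. SiNAT10_TGFB against SiNAT10 gave 1 and 1 on FPKM, 1 lower with pseudocount 1, 0 and 0 without the filter and at 0.01, 2 lower in a fit of only the 2 groups, 7 higher with GC, 6 with GC and the replicate block, 7 with GC and length, and 1 higher among members with few shared words. The interaction gave 6 positive by library size alone, 4 and 3 in DESeq2, 1 negative without a count filter, 0 positive in each FPKM fit and at 0.01, 6 and 4 with GC, 5 and 3 with GC and the replicate block, 6 and 5 with GC and length, and 1 and 1 among coding genes alone. Of the corepressor genes in TGFB against con, 0 were higher and 17 lower by library size alone, 3 lower on FPKM without the filter, 0 higher without a count filter, 3 higher with only the 2 groups, 4 higher with GC and length, 2 higher among coding genes alone, and 0 higher and 4 lower at 0.01. In SiNAT10 against con, 6 were higher by library size alone, 7 with GC and length and 4 among coding genes alone, and in SiNAT10_TGFB against TGFB 13 were higher by library size alone. EHMT2 in SiNAT10_TGFB against TGFB changed sign (0.007 with GC and length). The cause of each was not tested. Omitting each library in turn gave 3 to 11 higher and 8 to 17 lower for TGFB against con, 57 to 75 and 8 to 14 for SiNAT10 against con, 73 to 90 and 11 to 18 for SiNAT10_TGFB against TGFB, 0 to 2 and 0 to 6 for SiNAT10_TGFB against SiNAT10, and 0 to 4 and 0 to 2 for the interaction. For the corepressor genes these were 0 to 1 and 5 to 8, 2 to 4 and 13 to 16, and 4 to 5 and 11 to 13 in the first 3 comparisons, with the single rise with TGF-β1 lost without con replicate 2 or 3 or TGFB replicate 1, and 4 rises in SiNAT10 against con without SiNAT10 replicate 1 or 2.

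Replicate numbers did not pair the samples: deviations from the group means correlated at −0.073 to 0.048 for the same number and −0.068 to 0.087 for different ones. The replicate block alone, without GC adjustment, gave 6 and 11 for TGFB against con, 70 and 13 for SiNAT10 against con, 86 and 15 for SiNAT10_TGFB against TGFB and 1 positive interaction.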
